A study of Homo sapiens with 3 samples.

Results

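The RNA levels of 10 neuroendocrine secretory granule genes were examined in H660 cells after inhibition of the chaperone HSP70. The genes were chosen by name, as known parts of the granule and of prohormone processing, and all 10 were found in a table of 58735 genes. The rule uses no threshold on measured values. They comprise the granins and granin-like cargo proteins CHGA, CHGB, SCG2, SCG3, SCG5 and VGF, and the prohormone processing genes PCSK1, PCSK2, PCSK1N and CPE. H660 (NCI-H660) is a human cell line of neuroendocrine prostate cancer, labelled as parental and, by cell type, as prostatic adenocarcinoma. All cultures shared a medium that held hydrocortisone and beta-estradiol. JG231 is an allosteric inhibitor of HSP70 made to hold the chaperone in its ADP-bound form. There were 3 libraries, 1 each from cells given the vehicle DMSO, 2.5 µM JG231 or 5 µM JG231 for 24 h. A single cell line with 1 library per condition gives no replicate error, so no p-value or standard deviation is given and each difference is one between libraries.

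Endocrine and neuroendocrine cells store peptide hormones in dense-core secretory granules and release them on a stimulus. Granins are acidic, calcium-binding proteins that aggregate in the trans-Golgi network and help to form the granule, and several are themselves cut into bioactive peptides. Prohormones are cleaved at pairs of basic residues by the prohormone convertases PC1/3 (from PCSK1) and PC2 (from PCSK2), after which carboxypeptidase E (from CPE) trims the exposed basic residues. Each convertase has a small dedicated partner in the granule. The SCG5 product 7B2 is a chaperone that PC2 needs to mature, and the PCSK1N product proSAAS inhibits PC1/3. Chromogranin A, from CHGA, is a classical tissue and serum marker of neuroendocrine tumours.

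Promoter windows of 300 bases, 250 before the start of a gene and 50 from it on, were taken from RefSeq on GRCh38.p14 and matched for 8 of the 10 genes, in 10 windows since PCSK1 and PCSK2 have 2 starts each. They were not matched for CHGB and SCG2. The stretches below are only the 150 bases before the start of the gene with the largest fall (CHGA), the gene with the largest rise (SCG5), and the other genes whose promoter held the full cyclic AMP response element (PCSK1 and VGF). Each is printed 5′ to 3′ on the strand of the gene. Capitals mark the response element TGACGTCA, its 5-base core TGACG and the E-box CACGTG, which were searched on both strands of the whole windows. The core lies within the full element and is therefore found wherever that element is.
CHGA, chr14:92923000-92923149, plus strand: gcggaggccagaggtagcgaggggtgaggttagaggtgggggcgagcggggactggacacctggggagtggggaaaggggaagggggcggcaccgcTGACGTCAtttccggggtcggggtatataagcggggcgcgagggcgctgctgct
SCG5, chr15:32641560-32641709, plus strand: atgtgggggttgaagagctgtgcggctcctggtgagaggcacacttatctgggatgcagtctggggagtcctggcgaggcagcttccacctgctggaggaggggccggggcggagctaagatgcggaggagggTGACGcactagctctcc
PCSK1, chr5:96433249-96433398, minus strand: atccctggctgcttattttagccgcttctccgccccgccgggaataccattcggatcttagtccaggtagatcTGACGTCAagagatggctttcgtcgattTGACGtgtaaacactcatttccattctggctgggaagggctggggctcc
VGF, chr7:101165570-101165719, minus strand: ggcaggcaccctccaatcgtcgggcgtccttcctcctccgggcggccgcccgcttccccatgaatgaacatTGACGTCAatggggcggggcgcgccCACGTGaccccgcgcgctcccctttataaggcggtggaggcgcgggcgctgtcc

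Counted from the RefSeq start, the full element began 54 bases before the start of CHGA, 77 before that of PCSK1 and 79 before that of VGF. It was present in 3 of the 10 windows, each of a different gene, and in 1.8% of 35116 promoter windows of the same length. For PCSK1, the sequence shown is 1 of 2 RefSeq starts, and the window of the other start had no such element. The core TGACG was found in 8 of the 10 windows, which cover 7 of the 8 genes with PCSK1N as the exception, and in 24.6% of all windows. In SCG5 it began 17 bases before the start. VGF held the E-box, the preferred site of MYC-family dimers, 54 bases before its start, and this motif occurred in 7.3% of all windows. The AP-1 motif TGAGTCA was found in 1 window, 246 bases before the start of PCSK1N and so outside a stretch of the printed length, and in 4.9% of all windows. CAGCACC, a part of the site of the neuronal repressor REST, was found in 1 window, 10 bases after the start of SCG3, and in 7.8% of all windows. The other REST part GGACAG was in 4 of the 10 windows (20.5% of all), the GC box GGGCGG in 8 (45%) and TATAAA in 2 (11.5%). A match describes the letters only and no binding was measured.

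Values were FPKM, that is, fragments scaled to transcript length and to the size of the library, so that levels can be compared between genes. The steps between low values correspond to about 16100000 fragments in DMSO, 20400000 at 2.5 µM and 24100000 at 5 µM. The number of genes listed above 0 ran the other way, at 21862 in DMSO, 19352 at 2.5 µM and 17293 at 5 µM. The libraries thus also differ in detection, the reason for which was not tested. Each of the 10 genes had an FPKM over 1 in DMSO. They stood on about 25 (SCG5) to 3278 (SCG3) fragments in DMSO and on at least 408 in either JG231 library. The neuroendocrine label was checked against its markers. The neuroendocrine genes SYP, ENO2, INSM1 and NCAM1 lay between 3.4 and 37.0 FPKM in every library. Of the prostate luminal genes, KLK2 was listed at 0 throughout, KLK3 was at 0.134 FPKM or below, TMPRSS2 at 0.315 or below and HOXB13 at 0.861 or below. Of 8 markers of immune, endothelial, stromal, liver and glial cells, PTPRC, PECAM1, ALB and GFAP were listed at 0 in every library, and the list summed to between 1.27 and 2.22 FPKM. In RNA from whole cultures, fewer cells that express a gene and less RNA per cell cannot be told apart.

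In untreated cells the inhibitor PCSK1N was the most abundant of the 10 transcripts, at 131.5 FPKM, or 38.0% of their summed level of 345.7 FPKM. It was followed by SCG3 (64.5 FPKM), CHGA (45.99), CPE (33.96), CHGB (20.46), PCSK1 (15.54), SCG2 (15.34), VGF (12.30), PCSK2 (4.84) and SCG5 (1.27). Under JG231 the order changed below the first 2 places. SCG2 and SCG5 took places 3 and 4 at both doses, up from 7 and 10, while CHGA moved from place 3 to 6. The summed level of the 10 genes was 245.2 FPKM at 2.5 µM and 258.1 FPKM at 5 µM. SCG5 made up 0.4% of the sum in DMSO, 9.9% at 2.5 µM and 9.1% at 5 µM, and CHGA made up 13.3%, 6.1% and 4.9%.

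**Figure D1:**
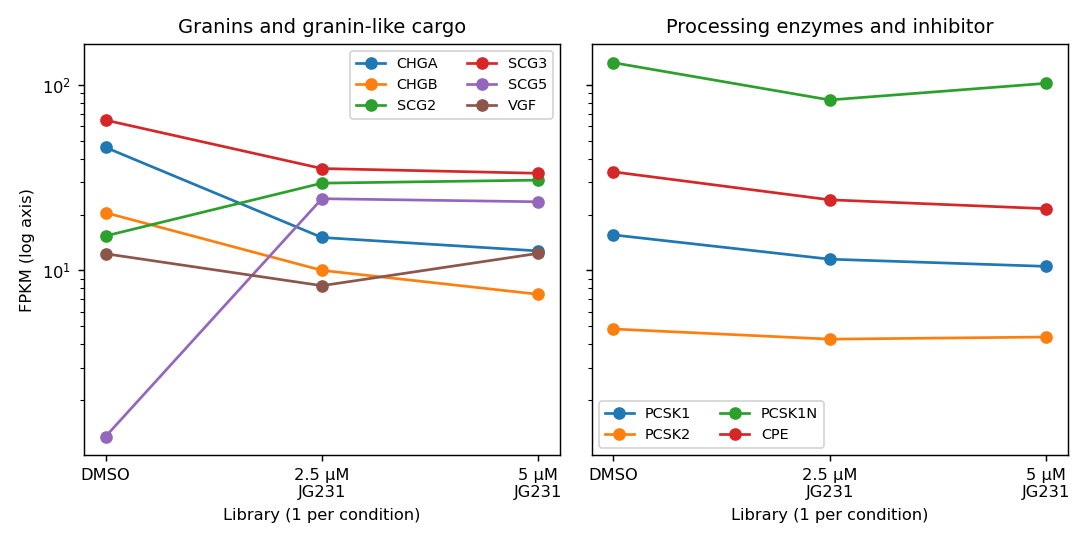
FPKM on a log axis of the 6 granin and granin-like genes (left) and the 4 processing genes (right) in the DMSO, 2.5 µM JG231 and 5 µM JG231 libraries, 1 point per library. SCG5 climbs from 1.27 to above 23 FPKM and SCG2 from 15.3 to about 30, while CHGA, CHGB and SCG3 fall and the lines of the processing genes do not cross.

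To judge the size of a change without replicates, it was compared with the spread, a robust SD of the log2 difference between 5 and 2.5 µM in those 500 genes whose mean FPKM lay closest to the gene's own. This yardstick includes any true difference between the doses. A change is log2 of the ratio of FPKM values after 0.1 was added to each, which slightly understates the change of low genes. Measured this way, adjacent levels in the order above did not differ beyond the spread for PCSK1 and SCG2 in DMSO. The same held at 2.5 µM for SCG5 and CPE and for PCSK1, CHGB and VGF step by step. At 5 µM it held for SCG3 and SCG2, for SCG5 and CPE, and for CHGA, VGF and PCSK1 step by step. All other neighbours differed by more. The spread compares the same gene between libraries and does not cover errors between genes, so the order is only approximate. Intervals in parentheses are exact 95% intervals of the log2 ratio of the estimated fragments. They cover counting error only, since amplified fragments without molecular tags are not independent molecules.

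The largest change among the 10 genes was that of SCG5 (ENSG00000166922; GRCh38 chromosome 15, 32641676 to 32697098, plus strand), which encodes 7B2. It had 1.27 FPKM in DMSO, 24.3 at 2.5 µM and 23.4 at 5 µM. Both JG231 libraries were thus far above DMSO and close to each other. The level was 19.1-fold higher at 2.5 µM and 18.4-fold higher at 5 µM. These were log2 changes of 4.15 (3.65 to 4.87) and 4.10 (3.60 to 4.81) against a spread of 0.26. That spread is of genes near the mean FPKM of SCG5, which it reached only through the JG231 libraries. For genes with a mean FPKM near 1, close to its DMSO level, the spread was 1.13, which both changes also exceeded. The DMSO value rests on about 25 fragments, compared with 594 at 2.5 µM and 675 at 5 µM. Its neighbours were at lower levels than SCG5 in both JG231 libraries. ARHGAP11A, which lies just upstream on the same strand, had 6.21, 6.40 and 4.13 FPKM in DMSO, 2.5 µM and 5 µM. GREM1, downstream, had 0.02, 0.67 and 0.38 FPKM, below 1 in every library, and the antisense SCG5-AS1 had 0.58 FPKM in DMSO and was listed at 0 at both doses. GENCODE release 44 also annotates a readthrough gene, ARHGAP11A-SCG5, that has no row of its own in the deposited table, so that its fragments could have been given to either parent. Whether counting used the strand is not given in the sources used here, so reads of SCG5 and SCG5-AS1 could not be told apart.

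SCG2 (ENSG00000171951; chromosome 2, 223596940 to 223602361, minus strand) encodes secretogranin II, the precursor of secretoneurin. It had 15.3 FPKM in DMSO, 29.5 at 2.5 µM and 30.6 at 5 µM. Like SCG5, it was higher in both JG231 libraries, by 1.92-fold and 2.0-fold. The log2 changes were 0.94 (0.80 to 1.08) and 0.99 (0.86 to 1.13) against a spread of 0.25. The values of both doses differed by 0.05, within the spread. SCG2 ranked 1190th and 1257th from the highest of 7583 genes whose mean FPKM reached 5, a level it exceeded in DMSO alone, so changes of its size were common in these libraries.

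CHGA (ENSG00000100604; chromosome 14, 92923150 to 92935285, plus strand) had the largest fall of the 10 genes. It had 45.99 FPKM in DMSO, 15.05 at 2.5 µM and 12.74 at 5 µM, a level 3.06-fold and 3.61-fold lower than in DMSO. Its log2 changes exceeded the spread of 0.25 at 2.5 and at 5 µM, being -1.61 (-1.75 to -1.48) and -1.84 (-1.99 to -1.71). It ranked 168th and 148th from the lowest of the 7583 genes, but 2207th of 15746 and 2299th of 15765 genes when all with an FPKM over 1 in DMSO or at the dose are counted.

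CHGB (ENSG00000089199; chromosome 20, 5911510 to 5925353, plus strand), the paralog chromogranin B, had 20.46 FPKM in DMSO, 10.01 at 2.5 µM and 7.44 at 5 µM. It was lower with each step in dose. The log2 changes were -1.02 (-1.19 to -0.87) and -1.45 (-1.63 to -1.29), and the step from 2.5 to 5 µM was -0.42 (-0.61 to -0.24) against a spread of 0.30. CHGB therefore went down together with CHGA, and the ratio of CHGB to CHGA was 0.445 in DMSO, 0.665 at 2.5 µM and 0.584 at 5 µM.

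SCG3 (ENSG00000104112; chromosome 15, 51681492 to 51721026, plus strand) encodes secretogranin III, which binds chromogranin A and tethers it to the granule membrane. It had 64.5 FPKM in DMSO, 35.39 at 2.5 µM and 33.36 at 5 µM. Both JG231 libraries were lower, by 1.82-fold and 1.93-fold. The log2 changes of -0.86 (-0.94 to -0.79) and -0.95 (-1.03 to -0.88) exceeded the spread of 0.22, and the doses differed by -0.08, less than the spread. Since SCG3 fell less than CHGA, the ratio of SCG3 to CHGA went from 1.40 in DMSO to 2.35 at 2.5 µM and 2.62 at 5 µM.

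VGF (ENSG00000128564; chromosome 7, 101162509 to 101165569, minus strand) encodes a neurotrophin-inducible granin-like peptide precursor. It had 12.30 FPKM in DMSO, 8.28 at 2.5 µM and 12.36 at 5 µM. The 2.5 µM library stood apart from the other two. The log2 change was -0.57 (-0.76 to -0.38) at 2.5 µM and 0.01 (-0.16 to 0.17) at 5 µM, against a spread of 0.30, and the sign at 5 µM depended on the scaling, with -0.37 after the libraries were rescaled to an equal sum without mitochondrial and small RNA genes. VGF had the largest difference between doses of the 10 genes, 0.57 (0.41 to 0.75).

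**Figure D2:**
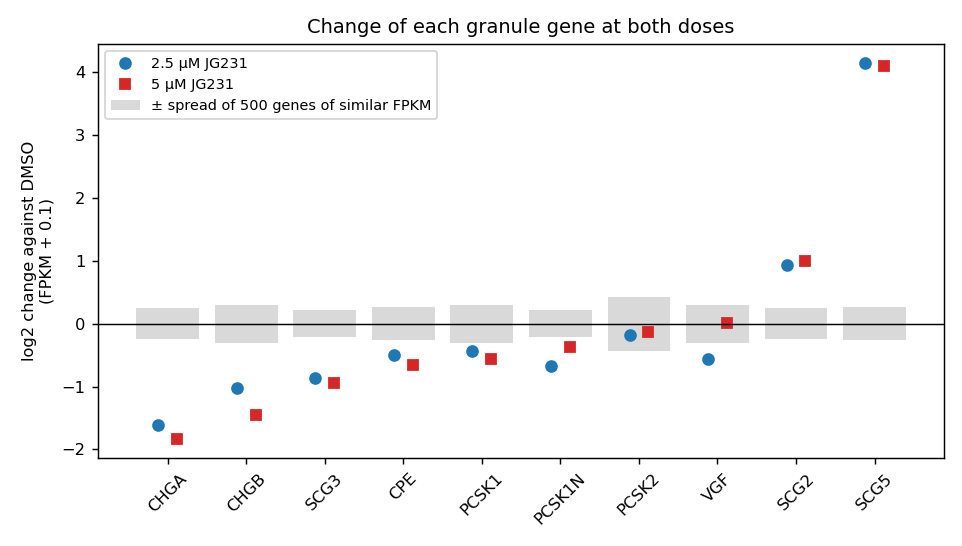
log2 change of each granule gene against DMSO (FPKM + 0.1) at 2.5 µM (circles) and 5 µM JG231 (squares), ordered by the change at 5 µM, with grey bars showing ± the spread of 500 genes of similar FPKM. SCG5 lies above 4 and SCG2 near 1 at both doses, CHGA, CHGB and SCG3 lie at -0.86 or below, and both points of PCSK2 fall inside its grey bar.

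The log2 changes of the 4 processing genes lay between -0.67 and -0.14, and none of them passed the threshold of 0.25 upward. PCSK1 (ENSG00000175426; chromosome 5, 96390333 to 96434143, minus strand) had 15.54 FPKM in DMSO, 11.50 at 2.5 µM and 10.52 at 5 µM. Its log2 changes of -0.43 (-0.55 to -0.32) and -0.56 (-0.68 to -0.45) were larger than its spread of 0.30. CPE (ENSG00000109472; chromosome 4, 165361194 to 165498547, plus strand) had 33.96, 24.01 and 21.51 FPKM in the same order. It was 1.41-fold lower at 2.5 µM and 1.58-fold lower at 5 µM, with log2 changes of -0.50 (-0.61 to -0.39) and -0.66 (-0.77 to -0.55) and a spread of 0.26. The endopeptidase PCSK1 and the exopeptidase CPE act in sequence on the same prohormones. As measured, both were lowered by similar amounts, and the ratio of CPE to PCSK1 was 2.18, 2.09 and 2.05. With the trend of change on transcript length removed, CPE fell more than PCSK1. The changes were then -0.63 and -0.83 for CPE at 2.5 and 5 µM, beside -0.33 and -0.34 for PCSK1.

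PCSK2 (ENSG00000125851; chromosome 20, 17226107 to 17484578, plus strand) was the least abundant of the processing genes and the only one within its spread at both doses. It had 4.84 FPKM in DMSO, 4.26 at 2.5 µM and 4.38 at 5 µM. The log2 changes were -0.18 (-0.39 to 0.03) and -0.14 (-0.34 to 0.05) against a spread of 0.43. At 5 µM the value went to 0.03 when the trend of change on transcript length was removed and to -0.51 after the rescaling named for VGF, a scaling that put the median gene at -0.40. PCSK1N (ENSG00000102109; chromosome X, 48831096 to 48835610, minus strand) had 131.5 FPKM in DMSO, 82.83 at 2.5 µM and 101.8 at 5 µM. It was lower in both JG231 libraries and lowest at 2.5 µM, with log2 changes of -0.67 (-0.76 to -0.58) and -0.37 (-0.45 to -0.29) and a spread of 0.21. With the trend on transcript length removed, the changes of PCSK1N, which has the shortest transcript of the 10, were -1.06 and -0.92. PCSK1N and VGF were the genes with a higher value at 5 than at 2.5 µM by more than the spread, the difference for PCSK1N being 0.30 (0.21 to 0.39).

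Ratios within a library do not depend on how the libraries are scaled to each other. The chaperone SCG5 stood at 0.263 times the level of its client convertase PCSK2 in DMSO, 5.71 times at 2.5 µM and 5.35 times at 5 µM. In contrast, the inhibitor PCSK1N stood at 8.46, 7.20 and 9.67 times the level of its target PCSK1. These ratios keep the trend of change on transcript length. With it removed, PCSK1N changed by -1.06 and -0.92 at 2.5 and 5 µM, beside -0.33 and -0.34 for PCSK1. The ratio of PCSK1N to PCSK1 would then be lower than in DMSO at both doses. Both enzyme and partner pairs therefore showed different patterns, and the change of the first came from SCG5, PCSK2 being within its spread. Within the granins, SCG2 was at 0.334 times the level of CHGA in DMSO and at 1.96 and 2.41 times in the JG231 libraries. SCG2 relative to CHGB went from 0.75 to 2.95 and 4.12. The order of SCG2 and CHGA was thus opposite in DMSO and in either JG231 library.

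**Figure D3:**
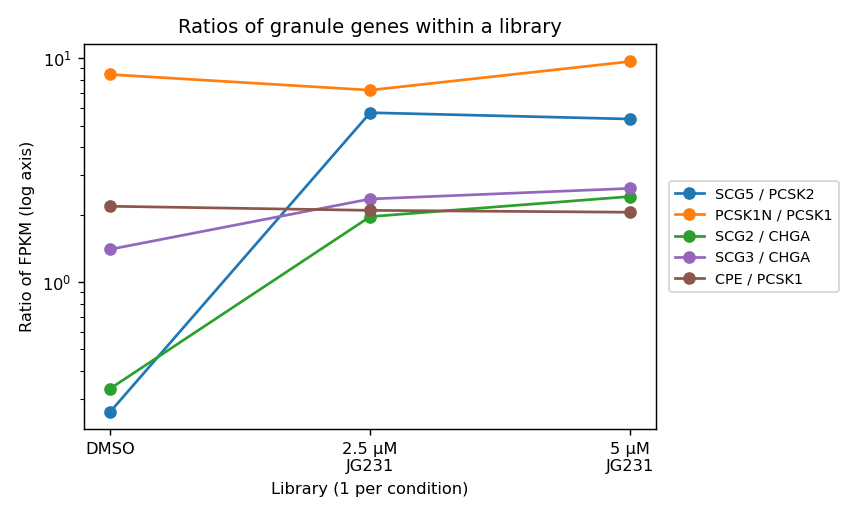
Ratio of FPKM between pairs of granule genes within each library, on a log axis, in DMSO, 2.5 µM and 5 µM JG231. The trend on transcript length was not removed. SCG5/PCSK2 goes from 0.263 to above 5 and SCG2/CHGA from 0.334 to about 2, whereas CPE/PCSK1 keeps between 2.05 and 2.18 and PCSK1N/PCSK1 between 7.20 and 9.67.

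The 10 genes were then set against all genes. A gene entered where its FPKM was over 1 in DMSO or at the dose, and it counted as lower or higher where the log2 change passed 0.25 in size. Both thresholds are those of the study's methods, which do not say in which library the level must be reached and which also kept genes that went to or from 0. All 10 passed the expression filter in DMSO alone. At 5 µM 6 of the 10 were lower (CHGA, CHGB, SCG3, CPE, PCSK1 and PCSK1N) and 2 higher (SCG2 and SCG5), beside 45.1% of 15765 genes lower and 36.5% higher. At 2.5 µM 7 were lower, the same 6 and VGF, and SCG2 and SCG5 were again higher, beside 43.4% and 36.4% of 15746 genes. With a threshold of 1, CHGA and CHGB were lower and SCG5 was higher at both doses, where the share of all genes was 24.3% lower and 14.7% higher at 5 µM and 21.7% and 12.9% at 2.5 µM. Changes larger than the spread were seen in 8 of 10 genes at 5 µM (65.2% of the 13785 genes whose mean FPKM reached 1) and in 9 of 10 at 2.5 µM (61.7%). Between the doses, 3 of 10 (CHGB, VGF and PCSK1N) exceeded the spread, beside 34.9% of genes, a share that follows from how the spread was defined and says nothing of a difference between doses. So widespread were changes in these libraries that the members' counts were not far from those of all genes. After the rescaling named for VGF, 8 members were lower and 2 higher at both doses, beside 60.1% and 23.0% of all genes at 5 µM and 56.2% and 24.6% at 2.5 µM.

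The median log2 change of the 10 genes was -0.46 at 5 µM and -0.53 at 2.5 µM, beside -0.01 and 0.00 over the 13785 genes. The 6 granin and granin-like genes had a median of -0.47 and -0.71, with a range that held both the lowest and the highest change of the 10. The 4 processing genes had medians of -0.46 and -0.47. The DMSO library is shared by both comparisons, so an error in it would shift both changes of a gene alike.

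**Figure D4:**
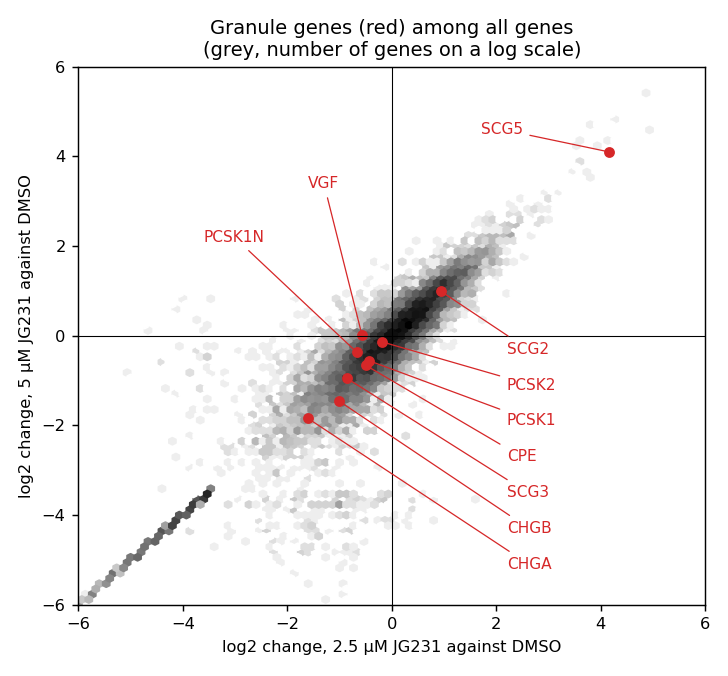
log2 change at 2.5 µM (x) against that at 5 µM (y) of the 15164 genes that passed the expression filter in both comparisons (grey, darker where more genes lie, log scale) with the 10 granule genes in red; 137 genes lie outside the axes. SCG5 is 1 of 103 genes above 3.5 on both axes, the other granule genes lie within the main cloud, and the streak at the lower left holds genes listed at 0 at both doses.

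Other genes of the regulated secretory pathway were examined by list. Of 14 further prohormone processing enzymes, 8 passed the expression filter, of which 7 were lower and 1 was higher at 5 µM, and 7 were lower and none higher at 2.5 µM. Of all genes that passed the filter, 45.1% were lower and 36.5% higher at 5 µM and 43.4% and 36.4% at 2.5 µM, which holds for the lists that follow. The list median, here and below over members whose mean FPKM reached 1, was -0.60 at 5 µM and -0.61 at 2.5 µM, but -0.32 and -0.38 over all 14 genes without the expression filter. Carboxypeptidase M (CPM), a membrane-bound relative of CPE, had 26.2 FPKM in DMSO, 5.80 at 2.5 µM and 3.06 at 5 µM. PAM, which amidates the C terminus of peptides after CPE has acted, had 18.2, 7.84 and 6.72 FPKM, log2 changes of -1.20 and -1.42. The convertase PCSK4 had 5.79, 2.12 and 2.52 FPKM.

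Of 34 genes of dense-core vesicle formation and exocytosis, 28 passed the filter. At 5 µM 17 were lower and 6 higher, with a median of -0.31, and at 2.5 µM 10 were lower and 8 higher, with a median of -0.14. At 2.5 µM both counts, out of 28, were below the shares of all genes (43.4% lower and 36.4% higher). The small GTPase RAB3B, a regulator of granule docking, had 12.7 FPKM in DMSO, 2.26 at 2.5 µM and 1.83 at 5 µM. The fusion clamp complexin CPLX2 had 31.7, 11.7 and 7.4 FPKM, and BAIAP3, of the Munc13 family, had 5.2, 1.45 and 1.36 FPKM. In the other direction, the vesicle SNARE VAMP2 had 3.73, 12.7 and 11.8 FPKM. CADPS2, a priming factor for dense-core vesicles, had 4.25, 8.49 and 9.97 FPKM, and RAB3A had 1.61, 2.24 and 3.41 FPKM. The RAB3A change at 2.5 µM, 0.46, was within its spread of 0.66.

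Peptide hormone precursors, the cargo that these enzymes cut, were partly expressed. Of 35 precursors, 15 were listed at 0 in all 3 libraries and 16 passed the filter. At 5 µM 5 were lower and 6 higher, with a median of -0.02, and at 2.5 µM 7 were lower and 6 higher, with a median of -0.08. With the trend on transcript length removed, the medians were -0.46 at 5 µM and -0.52 at 2.5 µM. Beside 45.1% lower and 36.5% higher of all genes at 5 µM, and 43.4% and 36.4% at 2.5 µM, these counts out of 16 were near the background or below it. The calcitonin gene-related peptide precursor CALCB had 1.96 FPKM in DMSO, 7.62 at 2.5 µM and 9.47 at 5 µM. Corticotropin-releasing hormone (CRH) had 0.97, 3.63 and 3.66 FPKM, and NPY had 1.89, 2.93 and 4.38 FPKM on at most 58 fragments. Neuromedin U (NMU) had 5.10, 0.96 and 0.94 FPKM and PTHLH 11.8, 6.63 and 7.43 FPKM. AVP, the vasopressin precursor, had 1.81 FPKM in DMSO on about 18 fragments and was listed at 0 at both doses.

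The COPI and COPII coats, which serve the early secretory pathway of all cells, had a median above 0. Of 18 coat genes 12 were higher and 2 lower at 5 µM, with a median of 0.53, and 12 were higher and 3 lower at 2.5 µM, with a median of 0.47, beside 36.5% and 36.4% of all genes higher and 45.1% and 43.4% lower. COPE had 42.7 FPKM in DMSO, 65.3 at 2.5 µM and 100.2 at 5 µM, SEC13 had 13.7, 26.2 and 31.5 FPKM, and SEC23B had 21.8, 34.7 and 41.3 FPKM. COPG2 and COPA were lower under JG231, by -0.90 and -0.65 (log2) at 5 µM, and SEC24C had changes of -0.27 and -0.11. After the rescaling named for VGF, the list medians at 5 µM were 0.15 for the coats, -0.40 for the peptide precursors, -0.68 for the dense-core vesicle genes and -0.97 for the processing enzymes. No test of the difference between lists was made, since there was 1 library per condition.

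**Figure D5:**
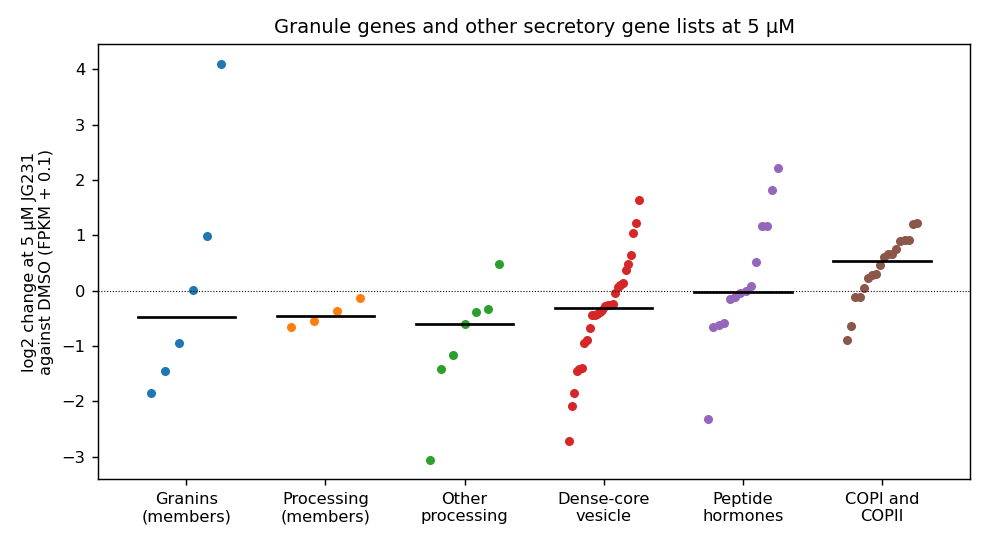
log2 change at 5 µM JG231 against DMSO (FPKM + 0.1) of each gene whose mean FPKM reached 1, in 6 lists, sorted within the list, with the median as a black line. The granins spread from -1.84 to 4.10 around a median of -0.47, the processing genes lie between -0.66 and -0.14, and the COPI and COPII coats have a median of 0.53.

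Lastly, the genes whose pair of changes lay nearest to those of the extreme members were sought in a pool of 7043 protein-coding genes (mean FPKM of 5 or more), by Euclidean distance over the 2 log2 changes. For CHGA these were PITPNM2 (-1.64 at 2.5 µM and -1.78 at 5 µM, distance 0.073), PLCB3 (-1.62 and -1.93, distance 0.090) and LRP5 (-1.54 and -1.91, distance 0.092). For SCG5 they were NR1D1 (4.14 and 3.78, distance 0.319), DDIT3 (3.76 and 4.0, distance 0.402) and PRRX2 (3.97 and 3.67, distance 0.461). SCG5 and PRRX2 reached that mean only through the JG231 libraries, and few genes lie near a change of the size of SCG5, so the distances for CHGA and SCG5 are not comparable. With 3 libraries, a likeness of this kind rests on 2 numbers that share a DMSO value.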

How the data were processed

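RNA-seq of H660 cells was analysed for 3 libraries, 1 per condition. Reads were aligned with HISAT by the authors, who deposited FPKM values per gene. The methods name StringTie for the quantification, while the submitters' processing notes list HISAT2 and featureCounts with GRCh38 (hg38). Versions and annotation release are not given in the sources used here, nor whether counting used the strand. The doses were read from the sample titles with the methods, and the 24 h exposure from the methods.

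Identifiers of 58207 of the 58735 genes were found in GENCODE release 44. A pseudocount of 0.1 was used. Fragments were estimated from FPKM, the length of the canonical transcript and the step between low values of single-transcript genes, in which 86.5% to 90.2% of values were within 0.1 of a whole number. Where a gene has several transcripts they are only approximate, so no count model was fitted.

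The genes and lists were chosen with earlier results of these data known. Named genes were all 10 members and, per list, up to 3 with the largest change in each direction at 5 µM, with an FPKM over 1 in a compared library and the same sign at both doses. Of the marker genes used as checks, some are not reported here. Alternatives were other pseudocounts (1 and 0.01), filters and thresholds, library rescaling, median centring, removal of the length trend by lowess (fraction 0.3, a choice first made in earlier work on these data) and summing of rows with the same symbol. Protein features were not analysed here. The change formula, its threshold and the fragment step were tested on simulated data. Changes were planted without noise, so their recovery was fixed in advance. The spread, intervals, rescaling and lowess fit were not tested in this way. Tables were handled in pandas 2.3.3 and numpy 2.4.6 under Python 3.11.15. Intervals came from scipy 1.17.1, the lowess fit from statsmodels 0.14.6 and the plots from matplotlib 3.10.9.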

Additional observations from a re-analysis of the deposited data

Results flagged for a closer look

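VGF was the only member whose sign differed between doses. Its log2 change against DMSO was -0.57 at 2.5 µM and 0.01 at 5 µM, a difference of 0.57, and the value at 5 µM lay within the spread of 0.30. The difference between doses was not tested, since each dose had 1 library.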

How the results depend on the processing

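With a threshold of 1 in place of 0.25, 2 members were lower at 5 µM and 2 at 2.5 µM. The libraries were also rescaled to an equal sum without mitochondrial and small RNA genes. The median change of the members was then -0.843 at 5 µM and -0.822 at 2.5 µM. This scaling also moved the median gene, to -0.40 and -0.29, so the median of the members stayed below it. SCG5, SCG2 and VGF lay above it at 5 µM, with 3.735, 0.616 and -0.37. The other alternatives kept both member counts within 1.5 times and both medians within 0.26, the median spread of the members. Of 180 changes of single members under 9 alternatives, 158 moved by less than the member's spread, 22 by more, and 0 changed sign among those past the threshold. SCG5 ranged from 3.42 to 4.19 at 5 µM and was lowest with a pseudocount of 1, CHGA from -2.22 to -1.77, and SCG2 from 0.62 to 1.0. VGF at 5 µM ranged from -0.37 to 0.02. The medians of peptide hormone precursors were -0.455 and -0.524 with the length trend removed, at 5 and 2.5 µM. No paired analysis was possible because each condition had 1 library. Limits are this lack of replicates and, for SCG5, the low number of fragments in DMSO.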
